A study of Mus musculus with 2 samples.

Results

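Granzymes A, B, C, D, E, F and K, perforin (Prf1) and Nkg7 are 9 genes of the cytotoxic granule, chosen by symbol from the 31053 genes listed for both libraries. All 9 were found, each under 1 identifier. They were read in single cells, by droplet sequencing of RNA 3' ends, from dissociated subcutaneous tumours of MC38, a mouse colon carcinoma line, in mice. There was 1 library from a control tumour group and 1 from a UBD overexpression group. UBD (FAT10) is a small protein related to ubiquitin that targets other proteins to the proteasome. The labels give no strain, age, sex or number of animals per library, no treatment beyond these groups, and no promoter or vector for the overexpression. The study's title links UBD to immune evasion and to resistance to PD-1 blockade, and the comparison here is of the killing genes of T cells and natural killer (NK) cells between the 2 libraries. With 1 library per group nothing was tested. Each interval below is a 95% interval that covers counting error within the libraries and not the spread between tumours.

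Cytotoxic T cells and NK cells store granzymes and perforin in secretory granules that are released onto a bound target. Perforin forms pores in the target membrane, and the granzymes, serine proteases, pass through to cleave proteins inside. Granzyme B cuts after aspartate and activates caspases, whereas granzymes A and K cut after basic residues. The genes for granzymes B to F lie in 1 cluster on mouse chromosome 14, and those for granzymes A and K on chromosome 13. Nkg7 is a granule membrane protein needed for efficient release. NK cells of mice are known to carry granzyme A messenger RNA at rest, and Gzmb is a marker of activated CD8 T cells.

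On GRCm38, Gzme (chr14:56117626-56120625), Gzmd (chr14:56129556-56132608), Gzmf (chr14:56205263-56211417), Gzmc (chr14:56231441-56234656) and Gzmb (chr14:56258838-56262260) were annotated in that order, all on the minus strand. Gzma (chr13:113093825-113100981) and Gzmk (chr13:113171608-113225908) were also on the minus strand. Prf1 (chr10:61297833-61304680) and Nkg7 (chr7:43437073-43438249) were on the plus strand. RefSeq start-site windows of 250 bases before to 50 bases after the start (build GRCm38.p6) were matched for all 9 genes. In global alignments the windows of Gzmc, Gzmd, Gzme and Gzmf were 73.5% to 93.4% identical over their 6 pairs, and the other 30 pairs of members were 40.3% to 50% identical. The 130 bases just before the RefSeq start are shown for these 4 genes and for Gzmb. They were chosen since Gzmc, Gzmd and Gzme shared cells in the data below and Gzmb was the granzyme of most T cells. Each reads 5′ to 3′ on the minus strand. The capitals mark the longest run common to Gzmc, Gzmd, Gzme and Gzmf, which spans 20 bases and is not in the Gzmb stretch. RefSeq starts can differ from the annotated gene ends given above. The Gzmb stretch begins at 56262335, upstream of its annotated gene end at 56262260, and the bases between were not searched for the run.
Gzmb, chr14:56262335-56262464: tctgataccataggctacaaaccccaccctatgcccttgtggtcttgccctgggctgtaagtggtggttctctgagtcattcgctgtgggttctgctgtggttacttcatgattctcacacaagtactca
Gzmc, chr14:56234658-56234787: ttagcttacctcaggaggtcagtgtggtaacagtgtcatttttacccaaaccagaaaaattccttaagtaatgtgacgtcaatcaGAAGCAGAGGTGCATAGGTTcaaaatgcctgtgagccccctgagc
Gzmd, chr14:56132594-56132723: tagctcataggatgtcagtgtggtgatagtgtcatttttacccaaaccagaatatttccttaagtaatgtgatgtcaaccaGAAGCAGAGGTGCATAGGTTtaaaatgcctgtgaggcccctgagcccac
Gzme, chr14:56120626-56120755: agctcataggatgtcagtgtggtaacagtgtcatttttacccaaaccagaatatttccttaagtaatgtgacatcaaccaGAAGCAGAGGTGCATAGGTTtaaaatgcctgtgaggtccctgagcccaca
Gzmf, chr14:56211408-56211537: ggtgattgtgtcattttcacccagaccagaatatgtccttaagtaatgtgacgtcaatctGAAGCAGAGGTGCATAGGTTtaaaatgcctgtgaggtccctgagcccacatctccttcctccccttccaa
The 6 letters TGTGGT, the core of the motif of RUNX factors, were present on either strand in 8 of the 9 windows, the exception being Gzmk, and in 16.8% of all 32851 windows in the table. Among the 8 were Gzmc, Gzmd, Gzme and Gzmf, whose windows were 73.5% to 93.4% identical, so their matches do not count as separate occurrences. The cyclic AMP response element TGACGTCA was in the windows of Gzmc and Gzmf and in 1.79% of all windows, and the T-box motif AGGTGTGA was in that of Nkg7 and in 1.28% of all. A match of letters is a description and not a site of binding.

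The paralogs resemble each other at the 3' end too, where the assay reads. Over the last 400 bases of the annotated transcripts, Gzmd and Gzme were 87.1% identical, and Gzmf was 85.9% identical to its neighbour Gzmg, whereas Gzmb was at most 49.1% identical to any other granzyme compared, to Prf1 or to Nkg7. No stretch of 90 bases was shared exactly by any pair. How the authors' counting treated reads that fit more than 1 of these genes is not given in the sources used here, so counts of Gzmd, Gzme and Gzmf are uncertain between those 3 and Gzmg.

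The control library held 14890 barcodes and 173973178 unique molecules (UMIs), and the UBD library 14158 barcodes and 204267192 UMIs. After filters and removal of predicted doublets, 13824 and 13057 cells were kept, at medians of 4333 and 12186 UMIs. The libraries had 71 barcode sequences in common. Levels are in CPM: UMIs of a gene per 1e6 of all UMIs summed over the same cells. Over all kept cells Ubd itself was at 0.674 CPM (0.554 to 0.812) in control and 1.07 CPM (0.931 to 1.23) in UBD cells. These levels came from 111 and 204 UMIs. In clusters with high Cdkn2a, outside the gates below, it was at 0.352 CPM (0.255 to 0.475) and 1.17 CPM (1.00 to 1.35). There it had 43 and 182 UMIs and was found in 0.580% and 1.12% of cells. Clusters with high Cdkn2a that also had C1qa were read apart, and Ubd had 6 control and 0 UBD UMIs in them. The Cdkn2a-high clusters are called by that gene and are given no cell type. Lymphocytes were read by gates on UMIs. The CD8 T gate (Cd3e with Cd8a) held 221 control and 288 UBD cells, the CD4 or Foxp3 T gate (Cd3e with Cd4 or Foxp3) held 53 and 27, and the NK gate (Ncr1 or Klrb1c without Cd3e) held 371 and 118. Cells were also clustered without the 9 genes. Of the CD8 T gate, 196 control and 237 UBD cells lay in the T-like cluster, led by T cell markers, and of the CD4 or Foxp3 T gate 43 and 24 did. The 13 T cell markers summed to 8506 and 8500.3 CPM in CD8 T gate cells of that cluster. Monocyte and macrophage RNA differed beside them: its 14 markers summed to 3204 and 3599 CPM over the whole CD8 T gate, with none at 0, and to 3669 and 1621 CPM in the T-like cluster part. The 6 osteoclast markers summed to 34.4 and 477 CPM over the gate and 36.0 and 365 CPM in that part, where 4 control and 0 UBD markers were at 0. The 11 dendritic markers summed to 967 and 290.3 CPM over the gate and 673 and 185 CPM in that part. The 10 NK markers, among them genes that CD8 T cells also express, summed to 1173 and 812 CPM over the gate and 1623 and 1195 CPM in that part. Of gate cells, 4 control and 28 UBD cells lay in monocyte- or macrophage-like clusters. The part of these cells and markers in the results below was not tested.

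The NK gate did not hold the same kind of cell in both libraries. In the control library 288 of its 371 cells lay in the NK-like cluster. In the UBD library 43 of 118 cells lay there and 69 lay in the Cdkn2a-high clusters, 65 of them with Klrb1c as the sole NK gate UMI. The 10 NK markers summed to 2809.6 CPM over the control gate and 485 CPM over the UBD gate, but to 4962 and 5277 CPM within its NK-like cluster part, with none at 0. NK values are therefore given for the whole gate and for the gate's cells in the NK-like cluster, where the UBD library had few cells. In that part the 14 monocyte and macrophage markers summed to 2183 and 1319 CPM, with 0 and 5 of them at 0, and the 13 T cell markers to 669 and 768 CPM.

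Most molecules of the 9 genes lay in the gates. In the control library 39.9% of all Gzmb UMIs lay in the CD8 T gate and 34.5% in the NK gate, of 13427 in all. In the UBD library 66.6% of 3758 Gzmb UMIs lay in the CD8 T gate and 4.15% in the NK gate. Prf1 had 23.5% of 2451 control UMIs and 63.2% of 996 UBD UMIs in the CD8 T gate, against 52.4% and 6.53% in the NK gate. Unlike Gzmb, it thus had more of its control UMIs in the NK gate than in the CD8 T gate. For Gzma and Gzmc the NK gate held the largest share in both libraries: 65.2% of 16268 control and 42.5% of 1690 UBD Gzma UMIs, and 72.7% of 7098 control and 64.5% of 1075 UBD Gzmc UMIs. Gzmk, at 203 and 187 UMIs, was the reverse, with 64.5% and 61.5% in the CD8 T gate and 6.90% and 0.535% in the NK gate. Clusters other than the T-like and NK-like ones held, outside the gates, 1.40% to 11.9% of each gene's UMIs in either library.

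**Figure D1:**
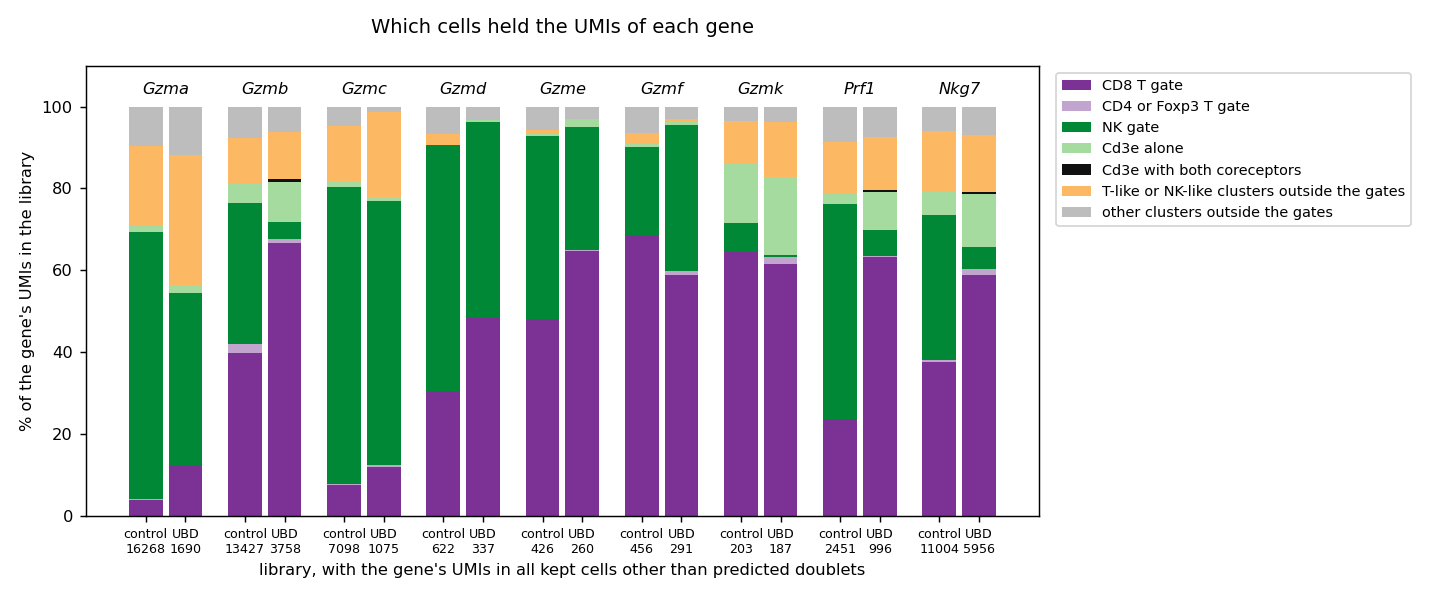
Share of each gene's UMIs, in percent, found in each gate, in T-like or NK-like clusters outside the gates, and in other cells, with 1 bar per gene and library and the gene's UMI total under the bar. Green (NK gate) takes 34.5% of the control Gzmb bar and 4.15% of the UBD Gzmb bar, while Gzmk is mostly purple (CD8 T gate) in both libraries.

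In CD8 T cells, Gzmb was lower in the UBD library, with fewer positive cells and fewer molecules in each, while the level of Prf1 was higher and that of Nkg7 nearly equal in the T-like cluster. Shares are of cells with at least 1 UMI after each cell was thinned at random to 1000 UMIs. In the CD8 T gate 4 of the 9 genes (Gzma, Gzmb, Gzmc and Gzmf) were lower in UBD cells by 1.5-fold or more and 0 were higher. Of all 8756 genes with at least 20 UMIs there, 11.9% were that much lower and 12.4% that much higher. The median log2 difference was -0.30 over the 9 genes and 0.01 over all. Within the T-like cluster it was 4 and 0 of 9 again, against 12.8% and 10.2% of all genes, and the median was -0.03 over the 9 genes and -0.03 over all.

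Gzmb was at 3344 CPM (3255 to 3434) in control CD8 T gate cells and 1549.5 CPM (1489 to 1611) in UBD ones, 2.16-fold lower (2.06 to 2.26). After thinning, 73.2% of 220 control cells and 61.3% of 287 UBD cells had a Gzmb UMI, which is -11.9 points (-19.8 to -3.59). That is the value of a single random draw. Averaged exactly over all draws the shares were 74.6% and 57.9%, a difference of -16.8 points. In the T-like cluster the level was 4657 CPM in control and 2444 CPM in UBD cells, 1.91-fold lower (1.81 to 2.01), and the shares were 79.0% and 63.1%. There, 37.4% of control and 18.6% of UBD cells had at least 5 Gzmb UMIs of 1000, and 12.8% and 7.63% had at least 10. The median control cell had 3 Gzmb UMIs and the median UBD cell 1, and the highest had 19 in both, so the cells of the 2 libraries overlapped over their whole range. The plot of UMIs per cell shows the UBD line under the control line up to about that range's upper end. Without the top cell of each library the levels were 4492 and 2305 CPM.

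Prf1, the pore former, was at 360.5 CPM (332 to 391) in control and 389 CPM (359.5 to 421) in UBD cells of the CD8 T gate, 1.08-fold (0.963 to 1.21). In the T-like cluster it was at 486 and 603 CPM, 1.24-fold higher in UBD cells (1.10 to 1.40), and 24.6% and 33.5% of cells had a UMI, a difference of 8.86 points (0.207 to 17.2). Averaged over all draws these shares were 28.9% and 35.9%. Nkg7 was at 2581 and 2172 CPM in the gate, 1.19-fold lower (1.14 to 1.24), but at 3510 and 3456 CPM in the T-like cluster, where 93.8% and 91.9% of cells had a UMI. Gzmk was at 81.9 and 71.2 CPM with an interval of the ratio that includes 1, and 8.18% and 9.76% of cells had a UMI.

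Gzma was at 381 CPM in control and 126 CPM in UBD cells of the CD8 T gate, 3.03-fold lower (2.58 to 3.57), but few cells carried it. It was found in 22 of 221 control and 20 of 288 UBD cells before thinning, and the 5 cells with the most held 75.7% and 59.6% of its UMIs. After thinning 6.36% and 4.88% of cells had a UMI, a difference of -1.49 points (-5.97 to 2.55). The interval of the fold excludes 1 and that of the share difference includes 0. Gzmc was at 332 and 79.9 CPM, 4.16-fold lower (3.42 to 5.08), or 354 and 93.6 CPM in the T-like cluster without the top cell of each library, with 70.1% and 79.1% of its UMIs in 5 cells, and at 5.91% and 2.09% of thinned cells.

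Gzmd, Gzme and Gzmf were rarer still. The CD8 T gate held 189 control and 163 UBD UMIs of Gzmd, 205 and 168 of Gzme, and 312 and 171 of Gzmf. Their 5 top cells held 82.4% to 100% of them in either library, and Gzmd was found in 11 control and 3 UBD cells. In the T-like cluster 1 control cell held 122 Gzmd UMIs, and the top UBD cell for Gzmb, Gzmc, Gzmd and Gzmf was a single cell of 8449 UMIs. Without the top cell of each library, Gzmd in that cluster was 1.72-fold higher (1.24 to 2.40) in UBD cells in place of 1.10-fold, and Gzmf was at 0.231 of the control level in place of 0.666. For these 3 genes the sign or size of the difference rested on single cells, Gzmf among the 4 lower genes included.

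**Figure D2:**
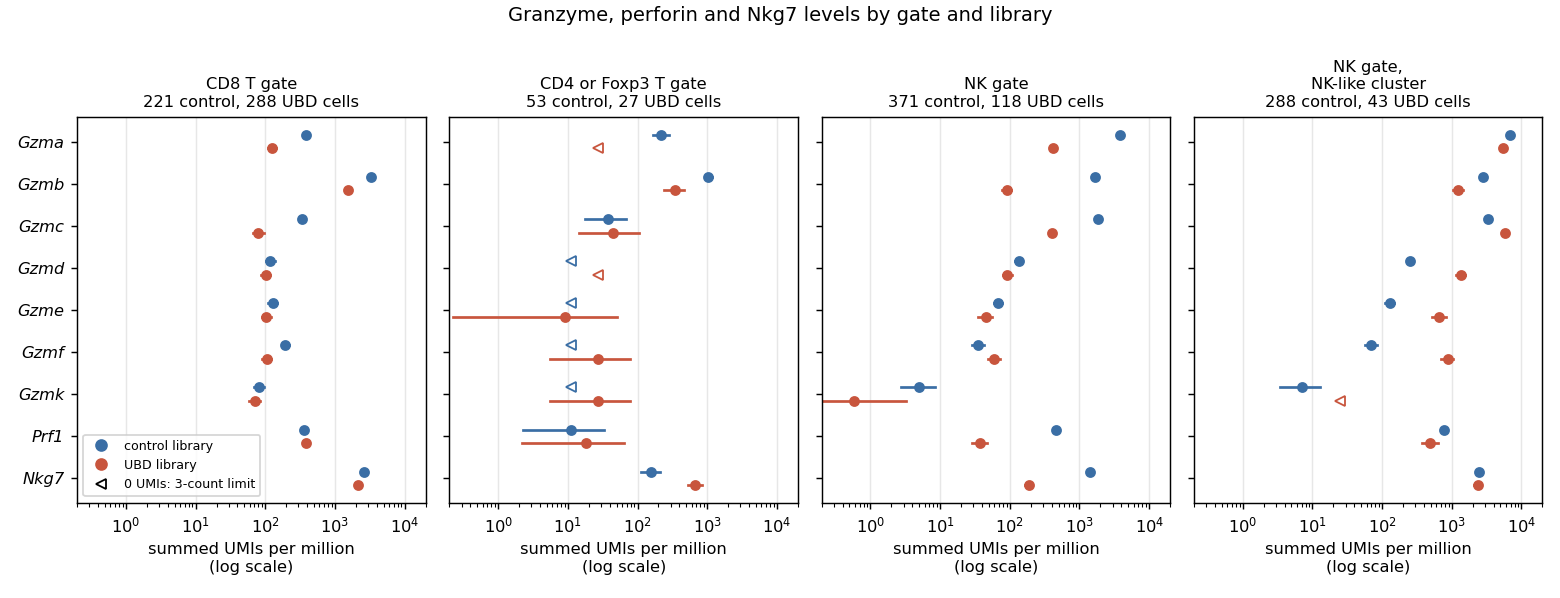
Level of each gene in CPM (summed UMIs, log scale) in the 3 gates and in the NK gate's cells of the NK-like cluster. Points are the summed level of 1 library, lines are exact Poisson 95% intervals, and open triangles mark the 3-count limit where a gene had 0 UMIs. Gzmb is lower in the UBD library in all 4 panels, while Nkg7 nearly coincides in the last.

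**Figure D3:**
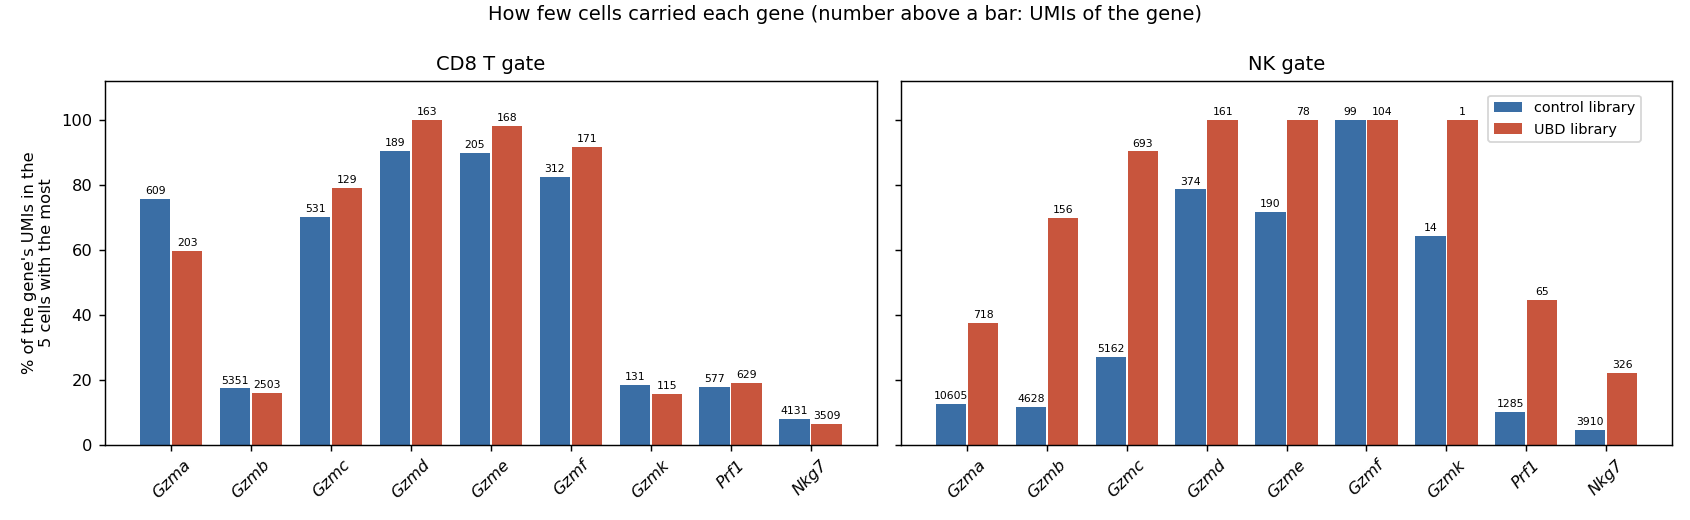
Percent of each gene's UMIs held by the 5 cells with the most, in the CD8 T gate and the NK gate, with the gene's UMI count over each bar. In the CD8 T gate Gzmb, Gzmk, Prf1 and Nkg7 are spread over many cells (6.30% to 19.1%), and Gzmd, Gzme and Gzmf are held by a few (82.4% to 100%).

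Cells outside the coreceptor gates were other cells of the same 2 libraries. Of cells with Cd3e but no coreceptor UMI (162 control, 161 UBD), 54.9% and 70.2% lay in the T-like cluster, and their 13 T cell markers summed to 1815 and 2179 CPM. The part of the remaining cells in the values was not tested. In this set Gzmb was at 561 and 366 CPM, 1.53-fold lower (1.35 to 1.75), but 31.4% and 30.1% of thinned cells had a UMI. Prf1 was at 55.7 and 91.5 CPM, 1.64-fold higher (1.18 to 2.29), and Nkg7 at 547 and 775 CPM, 1.42-fold higher (1.27 to 1.57). In T-like cluster cells with no Cd3e or NK gate UMI (162 control, 152 UBD), the 13 T cell markers summed to 5784 and 6146 CPM. The 5 mast cell or basophil markers summed to 81.1 and 1238 CPM there, and the part of such cells in the values was not tested. Gzmb in this set was at 1609 and 1059.8 CPM, 1.52-fold lower (1.32 to 1.75), and in 49.6% and 49.2% of cells. Prf1 was at 93.6 and 246 CPM there, 2.63-fold higher (1.70 to 4.15), and Nkg7 at 1325 and 1955 CPM. In both sets the summed Gzmb level was lower and the Prf1 level higher in the UBD library, and the interval of the Gzmb share difference includes 0 (-11.5 to 8.89 and -12.5 to 11.6).

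Within the CD8 T gate's T-like cells, several members were often found in the same cell. At 1000 UMIs per cell, 37.4% of control and 33.9% of UBD cells had 3 or more of the 9 genes, and 2.05% and 5.93% had none. Of cells with a Prf1 UMI, 93.8% of 48 control and 78.5% of 79 UBD cells had Gzmb, against 74.1% and 55.4% of cells without Prf1. Gzma was in 0 of the 48 control cells with Prf1, an exact interval of up to 7.40%, and in 5 of the 79 UBD cells with Prf1. Over the whole gate, each of the 6 control cells and the 4 UBD cells with a thinned Gzme UMI also had Gzmb, and the 6 control cells all had Gzmc. Gzmd was seen in 4 of the 6 and Gzmf in 1.

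States of the CD8 T cells were read on the same thinned counts. Cells with a UMI of a checkpoint gene (Pdcd1, Havcr2, Lag3, Tigit or Entpd1, receptors and an ectoenzyme of chronically stimulated T cells) made up 49.7% of control and 41.9% of UBD T-like gate cells. In the control library 87.6% of them had Gzmb, against 70.4% of the other cells, a difference of 17.2 points (5.80 to 28.2). In UBD cells they were 65.7% and 61.3%, which is 4.34 points (-8.13 to 16.3). The difference between these differences was not tested. Prf1 was in 26.8% and 22.4% of control cells and 43.4% and 26.3% of UBD cells with and without a checkpoint gene, in UBD cells 17.2 points (4.90 to 29.0). Cells with a cycling gene (Mki67, Top2a, Stmn1 or Birc5) had Prf1 in 17.5% of control and 22.0% of UBD cells, against 28.0% and 39.6% of the others, and the interval of that difference includes 0 in control cells (-21.6 to 2.58) but not in UBD cells (-28.6 to -5.15).

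In the CD4 or Foxp3 T gate, which holds helper and regulatory T cells, Gzmb was the granzyme found in the most cells and was lower in the UBD library, while Nkg7 was higher. Gzma, Gzmb and Nkg7 alone had 20 UMIs, of which 2 were lower by 1.5-fold or more and 1 higher, against 25.7% and 14.1% of 2858 genes. In the T-like cluster it was 1 and 1 of 2, against 23.2% and 16.5% of 1313 genes. Gzmb was at 1034 CPM (916 to 1163) in 53 control cells and 341 CPM (242 to 468.5) in 27 UBD cells, 3.03-fold lower (2.15 to 4.37). After thinning 48.1% of 52 and 23.1% of 26 cells had it, which is -25.0 points (-42.9 to -2.02). In the T-like cluster, Gzmb was at 1578 and 592 CPM and in 50% and 26.1% of thinned cells, where the interval of the difference (-43.7 to 1.09) includes 0. Nkg7 was at 157 and 674 CPM, 4.30-fold higher (2.91 to 6.43), and in 11.5% and 30.8% of thinned cells. Its UMIs were 42 and 75, so this rests on few molecules.

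The other members were near the limit in this gate. Prf1 had 3 control and 2 UBD UMIs, and Gzmd had 0 in both, a limit of 11.2 CPM for control and 26.9 CPM for UBD cells by 3 counts over the gate. Gzma had 58 control UMIs and 0 UBD UMIs, at least 8.03-fold higher in the control gate by the 3-count limit over the gate. But the T-like cluster part of the gate held 1 of the 58, so this fold rests on the few gate cells in other clusters. In T-like cells of this gate 0 cells of either library had 3 or more members, and 42.9% of control and 43.5% of UBD cells had none.

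In NK-like cells Gzmb was lower in the UBD library and Nkg7 nearly equal. Over the whole NK gate, 6 of 8 members with 20 UMIs were lower by 1.5-fold or more in UBD cells and 1 higher, beside 19.4% and 29.9% of 9772 genes. Gzma was at 3781 and 413 CPM, Gzmb at 1649.9 and 89.7, Gzmc at 1840.3 and 398, Prf1 at 458 and 37.4, and Nkg7 at 1394 and 187. Each of these 5 was lower beside the different makeup of the gate. After thinning, Nkg7 was in 34.5% of all UBD gate cells, in 90.2% of those in the NK-like cluster and in 0 of the 69 in Cdkn2a-high clusters.

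In the gate's NK-like cells, 2 of 8 members (Gzmb and Prf1) were lower by 1.5-fold or more and 4 higher, against 25.9% and 16.8% of 5754 genes. Gzmb was at 2841 CPM (2754 to 2931) in 288 control cells and 1227 CPM (1037 to 1443) in 43 UBD cells, 2.32-fold lower (1.96 to 2.75). After thinning, 70.3% of 283 control and 26.8% of 41 UBD cells had a Gzmb UMI, which is -43.5 points (-55.7 to -27.4), and averaged over all draws 73.6% and 33.0% did. At least 5 Gzmb UMIs of 1000 were seen in 21.9% and 2.44% of cells, and the median was 2 and 0. A single UBD cell held 82 of the 147 Gzmb UMIs, and without the top cell of each library the levels were 2757 and 564 CPM, 4.89-fold lower (3.83 to 6.35). Among NK-like gate cells with no Cd3d or Cd3g UMI (247 and 38), it was at 3017 and 614 CPM. Gzmb was lower in NK-like cells outside the gate as well, cells with neither an Ncr1 nor a Klrb1c UMI. There it was at 2079 and 977 CPM in 142 control and 45 UBD cells, 2.13-fold lower (1.74 to 2.63), and in 67.4% and 38.1% of thinned cells, a difference of -29.3 points (-44.3 to -12.1).

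The share of NK-like cells with Gzma differed less than that with Gzmb: averaged over all draws it was 74.0% and 67.3%, against 73.6% and 33.0% for Gzmb. Gzma was at 6825 and 5444 CPM, 1.25-fold lower (1.16 to 1.36), and in 72.8% and 68.3% of thinned gate cells, which is -4.50 points (-20.5 to 8.82). The median control cell had 4 Gzma UMIs of 1000 and the median UBD cell 6. Nkg7 was at 2439 and 2346 CPM with 89.8% and 90.2% of cells positive. Prf1 was at 781 and 493 CPM, 1.59-fold lower (1.22 to 2.10), and in 44.9% and 26.8% of thinned cells, or 45.9% and 34.4% averaged over all draws. Outside the gate Prf1 was at 603 and 512 CPM, 1.18-fold lower with an interval that includes 1 (0.878 to 1.61), and in 36.2% and 35.7% of thinned NK-like cells. Having 3 or more members was commoner in the control library, at 74.9% of cells against 41.5%.

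**Figure D4:**
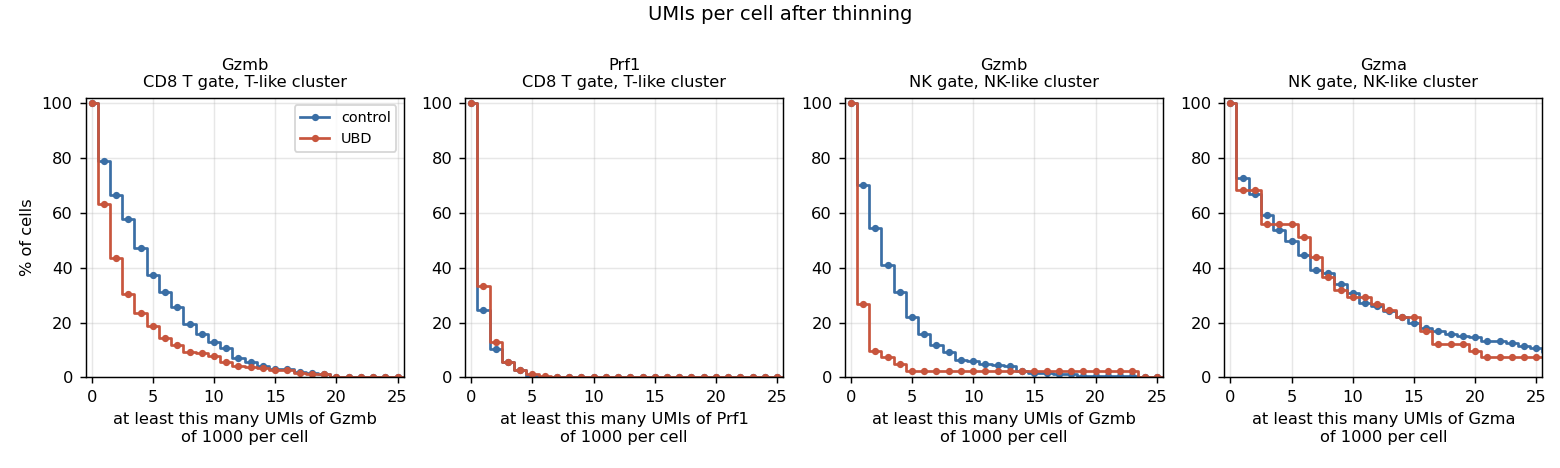
Percent of cells (vertical axis) with at least a given number of UMIs of the gene (horizontal axis) among 1000 UMIs per cell, for Gzmb and Prf1 in CD8 T gate cells of the T-like cluster and for Gzmb and Gzma in NK gate cells of the NK-like cluster. The UBD line for Gzmb lies under the control line over its steep part and meets or crosses it among the few highest cells, with 18.6% against 37.4% of CD8 T cells at 5 UMIs or more, while the lines for Gzma in NK cells cross.

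The 4 members that were higher in UBD NK-like cells were Gzmc, Gzmd, Gzme and Gzmf, and for the last 3 this rested on 1 cell. Gzmc was at 3274 and 5769 CPM, yet fewer UBD cells had it (34.3% and 22.0% of thinned cells). Without the top cell of each library it was at 2878 and 3438 CPM, 1.19-fold higher (1.07 to 1.32), which is under the 1.5-fold limit. Gzmd was at 251 and 1344 CPM, Gzme at 130 and 651 CPM, and Gzmf at 70.1 and 868 CPM. The UBD cell with the most Gzmd, of 4569 UMIs in all, held 160 of 161 Gzmd, 71 of 78 Gzme, all 104 Gzmf and 295 of 691 Gzmc UMIs. It also held 82 Gzmb and 12 Prf1 UMIs and none of Gzma. It had 2 Ncr1, 18 Klrd1, 10 Cd3d and 17 Cd3g UMIs but none of Cd3e or Trac. Without the top cells, Gzmd was at 150 and 8.68 CPM and Gzme at 92.2 and 60.8 CPM. In the control library too 1 cell held 89 of the 99 Gzmf UMIs.

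Among control NK-like cells Gzmc was placed unlike Gzma. Of 97 cells with a thinned Gzmc UMI, 61.9% had Gzma and 78.4% had Nkg7, against 78.5% and 95.7% of the 186 cells without it. In the UBD library 1 of 28 cells with Gzma had Gzmc, against 8 of 13 cells without Gzma (61.5%). Each of the 11 control NK-like cells with Gzmd had Gzmc, and 10 of them had Gzma. The 41 control NK-like gate cells with a Cd3d or Cd3g UMI had Gzma at 3330 CPM and Gzmc at 4615 CPM. The 247 without had 7795 and 2902 CPM. In the UBD library the 5 cells with such a UMI, the cell with the most Gzmd among them, had 960 and 15948 CPM. The 38 without had 6276 and 3880 CPM. The part of the cells with Cd3d or Cd3g in this pattern was not tested.

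Outside the gates, and outside the T-like and NK-like clusters, the genes were found at low levels that differed between cell classes. Different clusters held most cells of a class in the 2 libraries: of the Cdkn2a-high cells, most control cells lay in clusters 0 and 9 and most UBD cells in clusters 1, 2, 7 and 8. In Cdkn2a-high cells, with median depths of 22108 control and 16956 UBD UMIs, Gzmb was at 2.17 and 0.719 CPM and in 0.348% and 0.0378% of thinned cells. In monocyte- or macrophage-like cells it was at 5.89 and 3.68 CPM and in 0.643% and 0.246%. The gates' Gzmb shares of 9.48% to 73.2%, at median depths of 2162 to 10230.5 UMIs, lie above these. Some control classes were higher. Cells of the Cdkn2a-high clusters that also had C1qa, a complement gene of macrophages, had Gzma in 9.28% and Gzmb in 7.70% of 1962 thinned cells, against 0% and 1.83% of 219 UBD cells. Control dendritic-like cells had Gzmb at 40.3 CPM, and fibroblast-like cells at 35.6 CPM. 

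The ratio of Gzma to Gzmb UMIs differed between T and NK cells. It was 0.114 (0.104 to 0.124) in the control CD8 T gate and 2.40 (2.31 to 2.49) in control NK-like gate cells. In the UBD library the ratio was 0.0811 (0.0699 to 0.0936) and 4.44 (3.70 to 5.34). Of the 147 Gzmb UMIs behind the last value, 1 cell held 82, and it held none of the 652 Gzma UMIs. In control cells outside the gates the ratio was 1.45 in the Cdkn2a-high clusters with C1qa, 1.69 in other Cdkn2a-high cells, 1.57 in monocyte- or macrophage-like cells and 1.71 in dendritic-like cells. It was 0.783 (0.492 to 1.24) in fibroblast-like cells and 4.6 (2.29 to 10.2) in osteoclast-like cells, from 46 and 10 Gzmb UMIs, and 1.21 (1.18 to 1.24) over all control cells. In the UBD library it was 1.38 in Cdkn2a-high and 0.680 in monocyte- or macrophage-like cells, against 0.450 over all cells. UBD cells of the clusters with C1qa had 1 Gzma and 27 Gzmb UMIs. Whether these molecules were free RNA, attached lymphocytes or expression was not tested.

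**Figure D5:**
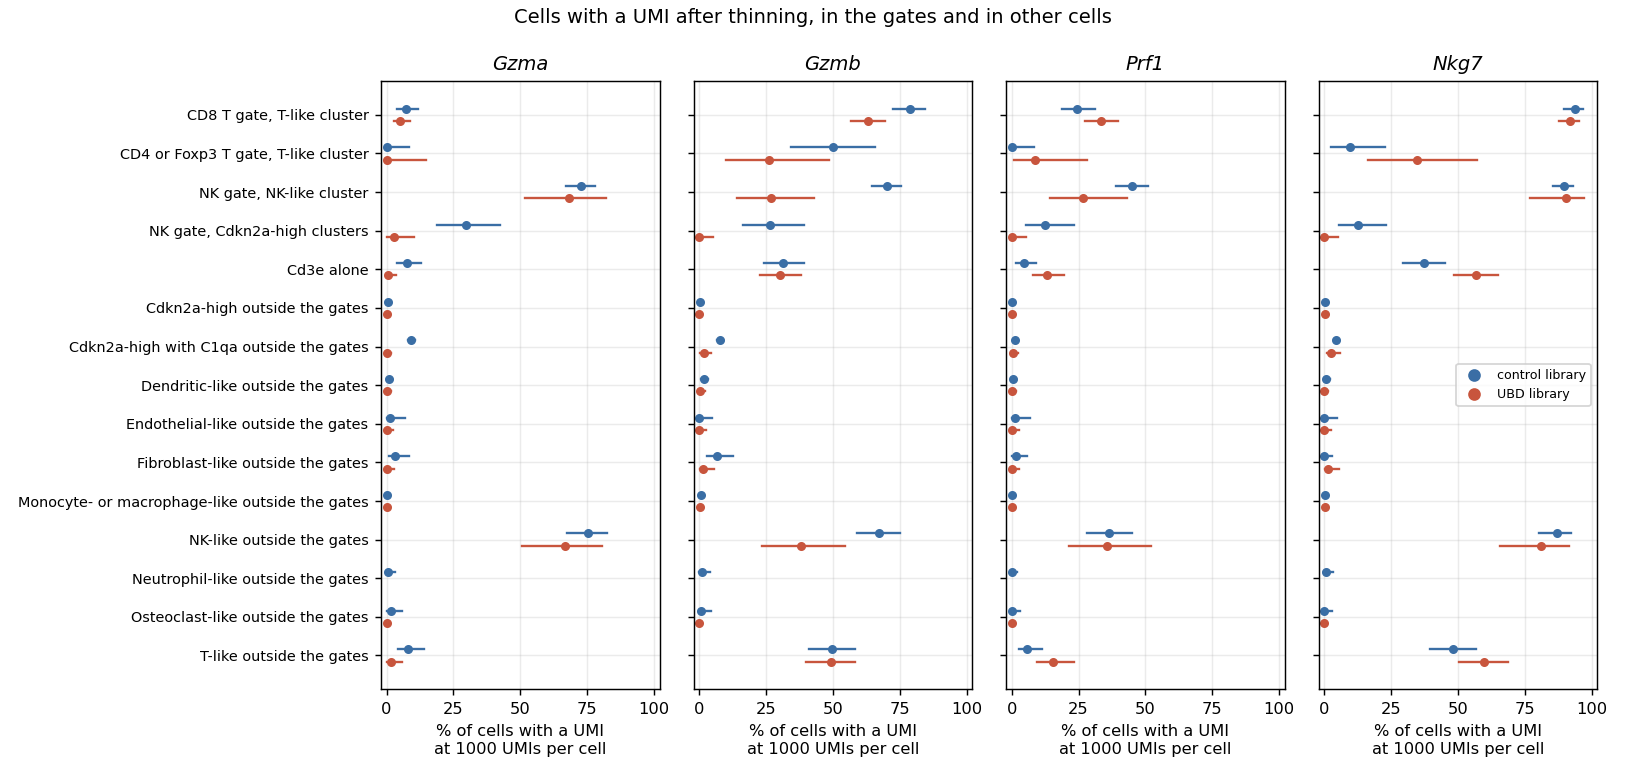
Percent of cells with at least 1 UMI of Gzma, Gzmb, Prf1 and Nkg7 after thinning to 1000 UMIs, by set of cells and library, with exact binomial 95% intervals for sets of at least 20 cells. For Gzmb, gate cells of the T-like and NK-like clusters stand above the other cluster classes outside the gates. For Gzma, CD8 T gate cells of the T-like cluster (7.18% control, 5.08% UBD) lie below control Cdkn2a-high cells with C1qa. No thinned CD4 or Foxp3 T gate cell of that cluster has Gzma in either library, or Prf1 in the control library. The UBD NK gate cells in Cdkn2a-high clusters sit at 0 for Gzmb, Prf1 and Nkg7.

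Other genes of the pathway were taken from 6 lists of 42 genes. In the CD8 T gate 39 had 20 or more UMIs, of which 6 were lower by 1.5-fold or more and 7 higher, beside 11.9% and 12.4% of all genes. The inhibitors were lower in 3 of 4. Serpinb9, which inhibits granzyme B and protects the killer cell, was at 219 and 98.4 CPM, 2.22-fold lower (1.84 to 2.70), Serpinb9b at 88.1 and 21.1 CPM, and Serpinb6b at 243 and 134 CPM. Serpinb6a was at 139 and 179 CPM. Of 7 measured genes of granule content and activation 2 were higher: Ctsc, the peptidase that activates progranzymes, was at 81.9 and 267 CPM, 3.26-fold higher over the gate. In its T-like cluster part Ctsc was at 73.8 and 63.3 CPM. Gzmg, a neighbour of Gzmf with 2 control and 41 UBD UMIs, was the other. Srgn and Ctsd, the most abundant of that list, were at 1130.4 and 1270 CPM and at 531 and 631 CPM.

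Of 8 granule release genes, Ap3b1, of the AP-3 adaptor that sorts proteins to lysosome-related organelles, was lower at 59.4 and 37.8 CPM, and the vesicle SNARE gene Vamp7 was higher at 21.2 and 37.1 CPM. Of 5 measured death ligand and cytokine genes, Fasl was lower at 49.4 and 27.9 CPM, and Ifng was higher at 326 and 519 CPM, 1.59-fold (1.43 to 1.78). In the regulators the T-box pair was split, with Tbx21 at 32.5 and 17.95 CPM and Eomes at 21.9 and 44.6 CPM. Prdm1 was at 25.6 and 45.8 CPM, and Id2, the most abundant regulator, at 985 and 1025 CPM. Of 7 genes on the target cell side 1 was higher, Gsdme with 10 and 16 UMIs, chosen for mention after its values were seen, as was Gzmg. Within the T-like cluster 8 of 37 measured genes were lower and 7 higher, beside 12.8% and 10.2% of all genes, with Serpinb9, Serpinb9b, Serpinb6b, Ap3b1 and Tbx21 again lower and Ifng, Eomes and Prdm1 again higher.

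In NK-like gate cells 33 of the 42 genes had 20 UMIs, and 10 were lower by 1.5-fold or more and 4 higher, beside 25.9% and 16.8% of all genes. Of those with 50 UMIs and an interval that excludes 1, Cst7, a cathepsin inhibitor, was at 243 and 142 CPM, Tnfrsf9 (4-1BB) at 251 and 150.3 CPM, and Hopx at 130.4 and 33.4 CPM, the last from 184 and 4 UMIs. Ifng was higher at 124 and 209 CPM. Srgn, Id2 and Runx3, the most abundant, were at 1524 and 1444, 1172 and 969, and 563 and 443 CPM. In the CD4 or Foxp3 T gate 22 genes had 20 UMIs, and 4 were lower and 6 higher, beside 25.7% and 14.1% of all genes.

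Genes whose pattern over cell sets was most like that of each member were found by the Pearson correlation of log2(CPM + 1) over 25 gates and cluster classes of the 2 libraries. These points share libraries and depth, so the values are a description. Gzmb was most like Skap1 (0.97), Il2rb (0.96) and Ms4a4b (0.95). Prf1 was most like Klrc1 (0.96), Fasl (0.95) and Eomes (0.95), and Nkg7 like Klrc1 (0.98), Ifng (0.97) and Fasl (0.97). Gzma was closest to Klra7 (0.91), Gzmc to Serpinb9b (0.88) and Gzmk to Cd160 (0.94). Gzmd and Gzme were both closest to Kcnk7 (0.80 and 0.79) and Gzmf to Klrc2 (0.74).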

How the data were processed

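The authors deposited whole-number counts of UMIs per gene and cell as filtered matrices, 1 per library. Per the submitters' processing notes Cell Ranger, STAR and the build mm10 were used, and the matrix header gives software version 3.1.0. The annotation and cell filters are otherwise not given in the sources used here.

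Kept cells had 200 or more genes, 500 or more UMIs and no more than 20% mitochondrial UMIs, and doublets predicted by Scrublet in scanpy 1.11.5 (529 control, 562 UBD) were removed. Cells were clustered without the 9 genes (2000 variable genes, 30 components, 15 neighbours, Leiden resolution 1.0) into 21 clusters, named from marker lists with naming thresholds set after the data were seen. A cell passed a gate with 1 UMI of each gene asked for. CD8 T gate cells had no Cd4 or Foxp3 UMI, and CD4 or Foxp3 T gate cells no Cd8a UMI. UMIs were summed per gate and library (exact Poisson intervals, exact conditional intervals of ratios), and shares were read after thinning to 1000 UMIs (Clopper-Pearson, and Newcombe-Wilson for differences). All intervals are at 95% and cover counting error. Scripts were tested on simulated data.

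Named other genes had 50 UMIs in the gate and a 1.5-fold difference with an interval that excludes 1, or were the 3 with the most UMIs. Genes of like pattern were the 3 of highest correlation. Members, lists and gates were chosen with earlier results of these data known. Positions are from the GENCODE vM21 annotation of GRCm38. Shares by naive or memory state are not reported here.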

Additional observations from a re-analysis of the deposited data

How the results depend on the processing

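With 1 library per group, no spread between tumours could be measured. No paired analysis was possible because each group has 1 library and no result comes from a test. Few UBD cells in the NK-like cluster and in the CD4 or Foxp3 T gate limit the precision there, and Gzmd, Gzme and Gzmf were held by too few cells for a direction. Of the alternatives for share differences, 230 stayed within the main value's interval, 19 moved outside it and 3 changed sign; for log2 CPM ratios it was 63, 52 and 5. Gzmb in the CD8 T gate was lower in UBD cells under every alternative run, by -19.4 to -11.6 points, and Prf1 was higher by 0.471 to 11.5 points. The sign changed for the Gzmc share in the CD8 T gate at 500 UMIs (0.305 points), and for the Nkg7 share in the NK gate with gates read on thinned counts (12.1 points) or T-like and NK-like clusters alone (1.40 points). In the NK gate the log2 ratio of Gzmc was 0.75 in those clusters and 0.37 with an Ncr1 UMI required. That of Gzme was 2.26 and 1.81 under these settings and 1.47 with cells weighted equally. The Gzmb share was also read over the whole NK gate, not its NK-like part alone. It differed by -42.7 points at 500 UMIs, -67.0 at 2000 UMIs and -40.1 with gates on thinned counts. Of the gate's 118 UBD cells, 69 lay in Cdkn2a-high clusters. Cells with fewer UMIs than the thinning depth drop out, so the makeup of the gate can change with depth. UBD cells of the NK-like cluster, in the gate and outside it, had a median of 1915 UMIs, against 10230.5 in the UBD gate. The part of this makeup in the values was not tested. Weighting cells equally gave 2 members higher in the CD8 T gate, 1 lower in the CD4 or Foxp3 T gate and 3 higher in the NK gate. With 1 UMI in each library in place of 20 in all, which leaves out genes at 0 in 1 library such as Gzma, 1 was lower and 2 were higher in the CD4 or Foxp3 T gate. In the NK gate, T-like and NK-like clusters alone gave 2 lower and 4 higher, an Ncr1 UMI 3 higher, and none of 3 Cd3 genes, or leaving out the top cell of each library, 0 higher. The causes were not tested. The Ncr1 gate, the top-cell setting and the average over all thinning draws were chosen after seeing the data.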

Other observations

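Genes that act in the target of a killer cell were read in Cdkn2a-high cells outside the gates, from 122014872 control and 155797490 UBD UMIs. Fas, the receptor of Fas ligand, was at 9.63 CPM in control and 4.44 CPM in UBD cells, 2.17-fold lower (1.97 to 2.39). The granzyme B inhibitor Serpinb9 was at 5.00 and 3.24 CPM, 1.54-fold lower (1.37 to 1.74), and Serpinb6b was at 11.7 and 5.94 CPM. Igf2r, a receptor that binds granzyme B, was at 138.0 and 165 CPM. Gsdme was at 20.9 and 26.2 CPM, Serpinb6a at 183 and 182 CPM, M6pr at 41.4 and 37.6 CPM and Bid at 12.54 and 11.6 CPM. Different clusters held most of these cells in the 2 libraries, clusters 0 and 9 (2243 and 1410 cells against 369 and 62) in control and clusters 1, 2, 7 and 8 (2259, 2061, 1660 and 1486 against 147, 257, 104 and 159) in UBD. The part of this makeup in the values was not tested. These are values of 1 library per group with counting intervals.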
